A study of Mus musculus with 4 samples.

Results

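Imprinted genes are described here across polysomal and total RNA of mouse cerebral cortex. The genes were chosen by name, as 42 symbols looked up among the 32531 gene names of the deposited count files, and all 42 were found. Of these, 35 are protein-coding and 7 are noncoding RNAs, and most lie in shared domains on the chromosome. The 4 libraries came from adult Cbln1-TRAP mice of the line NIDA030, which carry Rpl10a, a protein of the large ribosomal subunit, fused to EGFP. The IP group held 2 libraries of ribosome-bound RNA, pulled down from cortex homogenate with antibodies to EGFP, and the input group held 2 libraries of total RNA from cortex of the same line. Libraries were numbered 2 and 4 in each group. Every group carried the transgene, so no group without it served as a control. The Cbln1 in the line's name gives the gene meant to direct the tag, and the tissue input contains all cell types of cortex. Whether the libraries within a group derive from different animals is not stated, and p-values therefore reflect no more than the spread of these libraries, possibly technical.

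Genomic imprinting is the expression of a gene mainly from a single parental copy, set by DNA methylation placed on control regions in the germ line. Imprinted genes cluster in domains in which a long noncoding RNA is often made from the chromosome that keeps the neighbouring protein-coding genes silent. Many are expressed in brain, where they act in growth, energy balance, hormone release and neuronal survival. The files hold no allele information, so parental origin is given below as background only. Several of the long noncoding RNAs, such as Kcnq1ot1 and Airn, are known to act in the nucleus, near the site where they are made.

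Counts assigned to genes numbered 41334423 and 47567384 in the IP libraries, against 41385301 and 39750468 in the input libraries. Cbln1 stood at 99.3 and 68.7 CPM in IP and at 11.9 and 8.55 CPM in input, where CPM are counts divided by the normalised library size, scaled as usual. Rpl10a, the tagged gene, stood at 3.11 and 2.92 CPM in IP, against 6.82 and 7.14 CPM in input (log2 fold change -1.21, SE 0.24, edgeR adjusted p = 0.000358), and the counts do not separate the tagged copy from the native gene. Markers of neurons in general were present in cortex as labelled: 12 of them summed to 36400 and 34500 CPM in IP, against 16300 and 17000 CPM in input. Of the 12, 10 rose, beside 23.4% of all genes tested, and Map2 fell, at 341 and 344 CPM in IP, against 987 and 1130 CPM in input. Snap25 alone made up 27000 and 25500 CPM of the sums in IP and 10500 and 10900 CPM in input. Reads outside annotated features were 7.31% and 7.54% of records in IP, against 14.9% and 13.5% in input, and reads that touched more than 1 gene were 1.54% in both IP libraries, against 5.07% and 5.09% in input. Both IP libraries carry lane 1 in their labels and both input libraries carry lane 2, and the effects of lane and group cannot be told apart. A floor of 3 counts, which covers counting error only, corresponded to 0.0660 to 0.0790 CPM.

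Imprinted genes moved in both directions. Noncoding members were called lower in IP or not called, and protein-coding members were called on either side. Of 38 members that passed the filter on low counts, 12 rose, 13 fell and 13 did not pass the test (quasi-likelihood test of edgeR, adjusted p under 0.05 by the Benjamini-Hochberg method over 16600 genes). Among all genes tested, 45.8% were called, with 23.4% higher in IP and 22.4% lower, and members reached 31.6% higher and 34.2% lower. The 6 noncoding members tested had a median log2 fold change of -2.21 (IP over input throughout), with 4 lower and 0 higher. The 663 long noncoding genes tested had a median of -1.11, with 51.0% lower and 0.603% higher. The 32 protein-coding members tested had a median of 0.13, with 12 higher and 9 lower. That median turned to -0.13 when scaled by library sizes alone, a setting that moved the median of all genes to -0.29, against -0.04 in the normalised data. Among the 14307 protein-coding genes tested the median was 0.06, with 26.8% higher and 17.6% lower. The shares of reads outside features and of reads touching several genes, given above, were lower in IP together with the noncoding RNAs. Their part in the result was not tested. Fewer cells of a type and less RNA per cell cannot be told apart in these bulk samples.

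**Figure D1:**
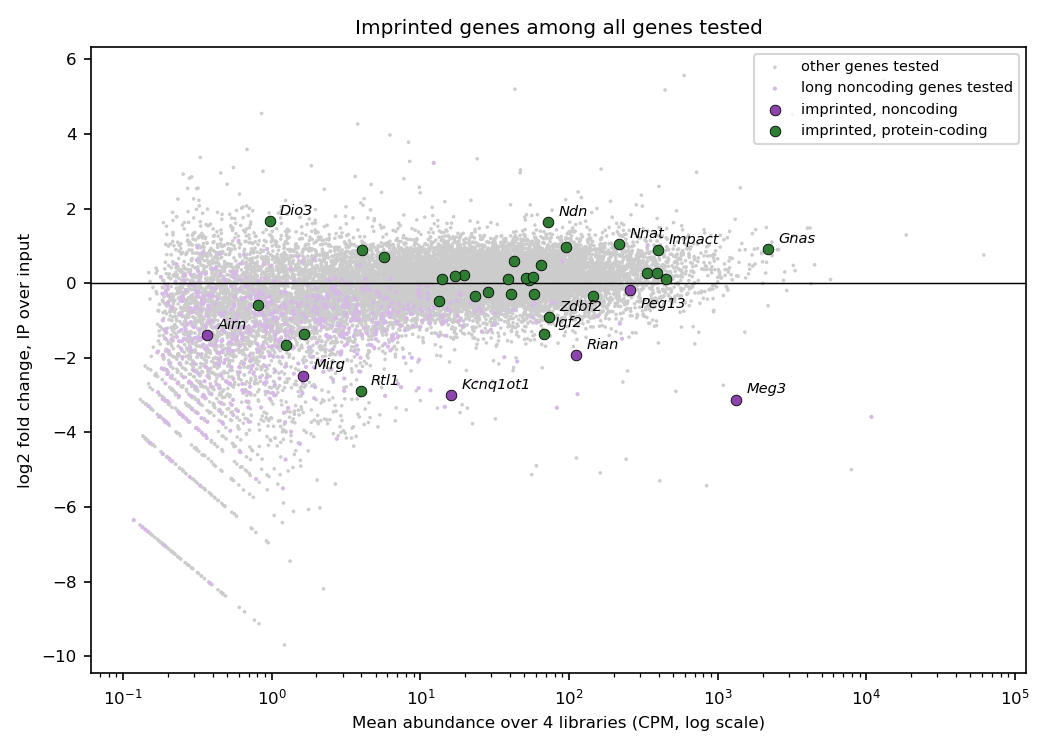
Each point is 1 of the 16600 genes tested, with the mean abundance over 4 libraries (CPM, log scale) across and the log2 fold change of IP over input upward. Noncoding imprinted genes (purple) lie at or below 0 and protein-coding ones (green) on both sides. Meg3 stands out at -3.12 and a mean of 1330 CPM.

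**Figure D2:**
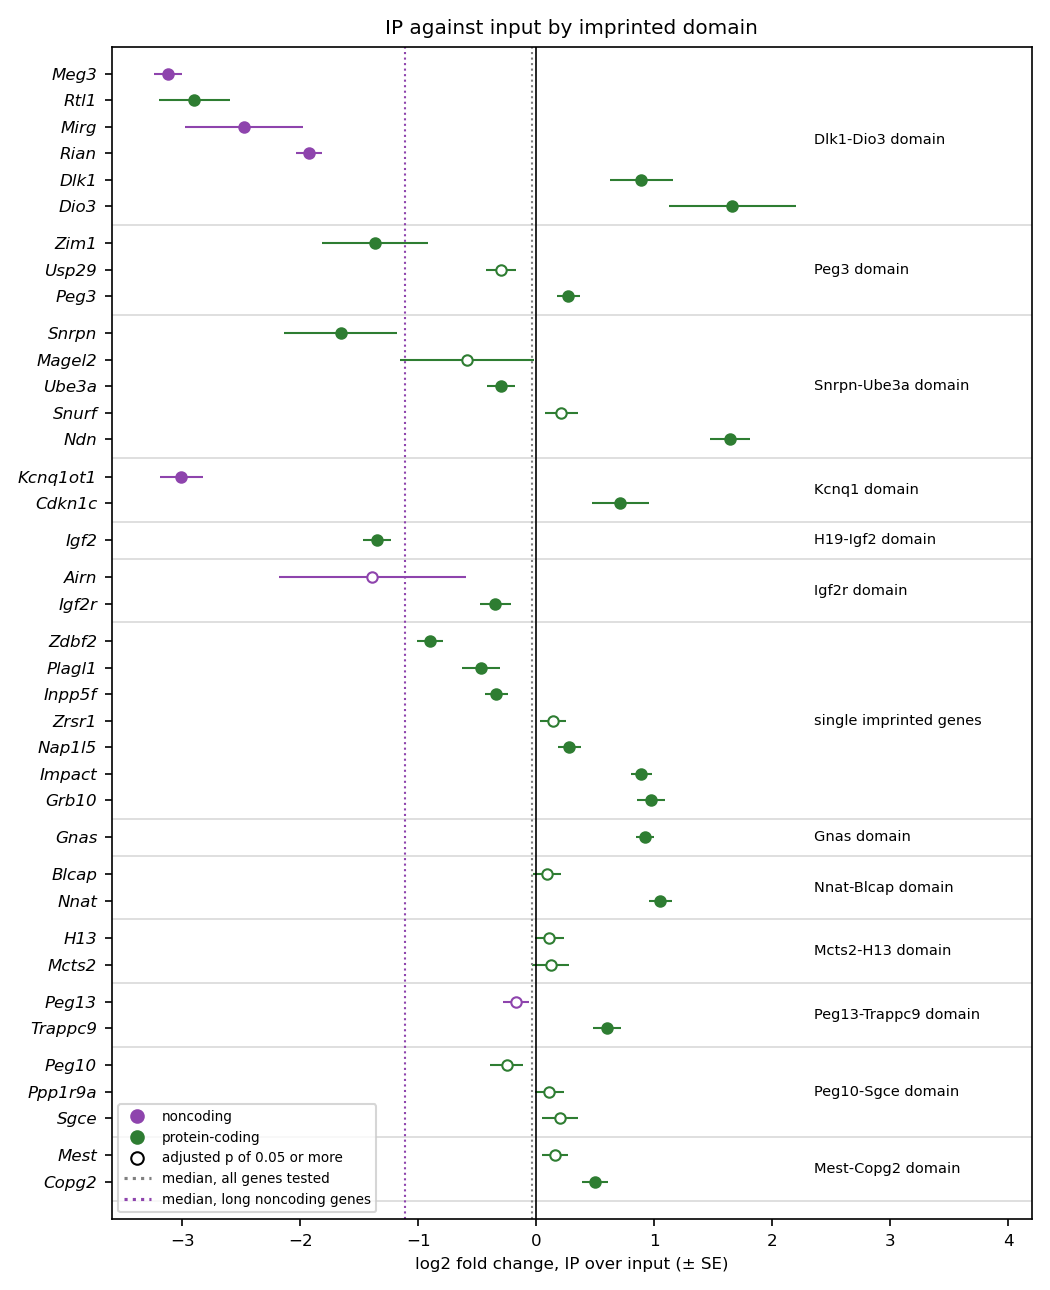
The log2 fold change of IP over input with its standard error is drawn for the 38 members tested, grouped by domain, with filled points for an adjusted p under 0.05. The noncoding members Meg3, Rian, Mirg and Kcnq1ot1 lie between -3.12 and -1.93, and dotted lines mark the medians of all genes tested (-0.04) and of long noncoding genes (-1.11).

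Meg3, a maternally expressed noncoding RNA of the Dlk1-Dio3 domain, had the lowest log2 fold change of the members tested. It stood at 236 and 313 CPM in the IP libraries, against 2600 and 2170 CPM in the input libraries. Both IP values lay far below both input values, and the difference was 8.68-fold (log2 fold change -3.12, SE 0.12, edgeR adjusted p = 5.96e-13). Meg3 (GRCm38 chromosome 12, plus strand, 109541001 to 109571726) is annotated as a lincRNA with up to 10 exons. Rian, a noncoding RNA further along the same strand that carries small nucleolar RNAs in its introns, stood at 42.3 and 50.5 CPM in IP, against 178 and 176 CPM in input. The log2 fold change of Rian was -1.93 (SE 0.11, edgeR adjusted p = 1.05e-10). Mirg, which ends the row and hosts a microRNA cluster, had 8 and 33 counts in IP, against 114 and 131 in input. Mirg fell by 2.48 on the log2 scale (SE 0.50, edgeR adjusted p = 0.000527), with the IP libraries apart: the value was -1.84 without IP 2 and -3.69 without IP 4. All 3 RNAs of this strand were thus lower in both IP libraries than in both input libraries. The same held for 500 of the 663 long noncoding genes tested and for 37.8% of all genes tested. The annotated span of Rian also holds the hairpin of Mir1188 outside its exons, and that position had 9 and 6 counts in IP, against 60 and 66 counts in input.

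The 250 bases before the start of Meg3, shown because this RNA carries the largest change, hold a full cAMP response element (TGACGTCA, a palindrome, in capitals) that ends 49 bases before the start. The window is chr12:109540746-109540995 on the plus strand of GRCm38.p6, read 5′ to 3′ from RefSeq.
Meg3 upstream window: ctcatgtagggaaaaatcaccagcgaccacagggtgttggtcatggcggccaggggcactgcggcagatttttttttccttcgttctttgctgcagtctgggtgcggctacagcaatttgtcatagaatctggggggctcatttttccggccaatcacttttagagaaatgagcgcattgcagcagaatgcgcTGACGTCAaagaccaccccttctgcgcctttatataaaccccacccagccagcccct
Of 32851 such windows of mouse genes, 1.55% hold this element. That is a share of windows and not of genes, which can have several windows. RefSeq windows were matched for 34 of the 42 members, and the element was in those of 3, Meg3, Peg3 and Zdbf2. Their log2 fold changes were -3.12, 0.27 and -0.90, so members with these letters did not move alike. The copies of the other pair are shown with 10 bases on each side, Zdbf2 from chr1:63273200-63273227 on the plus strand and Peg3 from chr7:6730580-6730607 on the minus strand.
Zdbf2: gcaccttcgcTGACGTCAgagctgcagt
Peg3: ctgactccgtTGACGTCAactccgtgcc
The Peg3 stretch overlaps annotated exons of Usp29 and Gm27675 on the other strand. The Zdbf2 stretch overlaps an exon of Gm24513, also on the other strand. A match is a description of the letters and says nothing of a factor bound there. IP over input is no measure of promoter activity, so these fold changes do not bear on what the element does.

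Kcnq1ot1, the paternally expressed antisense RNA that silences the Kcnq1 domain, stood at 3.37 and 3.75 CPM in IP, against 32.6 and 24.8 CPM in input. The IP libraries lay well below the input libraries, and the log2 fold change was -3.01 (SE 0.18, edgeR adjusted p = 2.85e-10), close in size to that of Meg3. It is annotated as a single exon of 93092 bases on the minus strand of chromosome 7, inside Kcnq1. It shares 121 bases with exons of Kcnq1 on the other strand, and Kcnq1 had 6 and 1 counts in IP, against 8 and 3 in input. Larger overlaps on the other strand are annotated with Gm27395 (460 bases), Gm27539 (224 bases) and Gm27389 (195 bases). The strand setting of the counting is unknown, and the value is uncertain to that extent. The same holds for Meg3, which shares 1228 exonic bases with Gm26906 on the other strand.

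Peg13 did not share this pattern. This paternally expressed noncoding RNA lies in an intron of Trappc9, as a single exon of 4725 bases (chromosome 15, minus strand, 72805600 to 72810324). It stood at 234 and 251 CPM in IP, against 238 and 308 CPM in input, and the groups overlapped. For Peg13 the log2 fold change was -0.17 (SE 0.11, edgeR adjusted p = 0.208), and the value turned to 0.03 without input 4 and to -0.34 without input 2, where the call was made (edgeR adjusted p = 0.0173). It was also called with library sizes alone, at -0.43 (edgeR adjusted p = 0.00159). On the CPM scale per kilobase of annotated exon, the level of Peg13 averaged 51.3 in IP and 57.8 in input, whereas Meg3 averaged 15.2 in IP and 132 in input. Peg13 was thus the noncoding member with the highest level per length in IP, and Meg3 in input. No exon of another gene overlaps Peg13 in the annotation.

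Airn and H19 had few counts in these libraries. The annotated exons of Airn cover 3597 bases of a span of 118826 bases. Reads from the rest of that span may not have been counted, so its count may not show the level of the whole RNA. Airn, the antisense RNA of the Igf2r domain, had 12 and 4 counts in IP, against 17 and 30 in input, and its log2 fold change of -1.39 did not pass (SE 0.79, edgeR adjusted p = 0.162). H19, which is abundant in the embryo, had 2 and 7 counts in IP, against 2 and 3 in input, and was not tested.

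**Figure D3:**
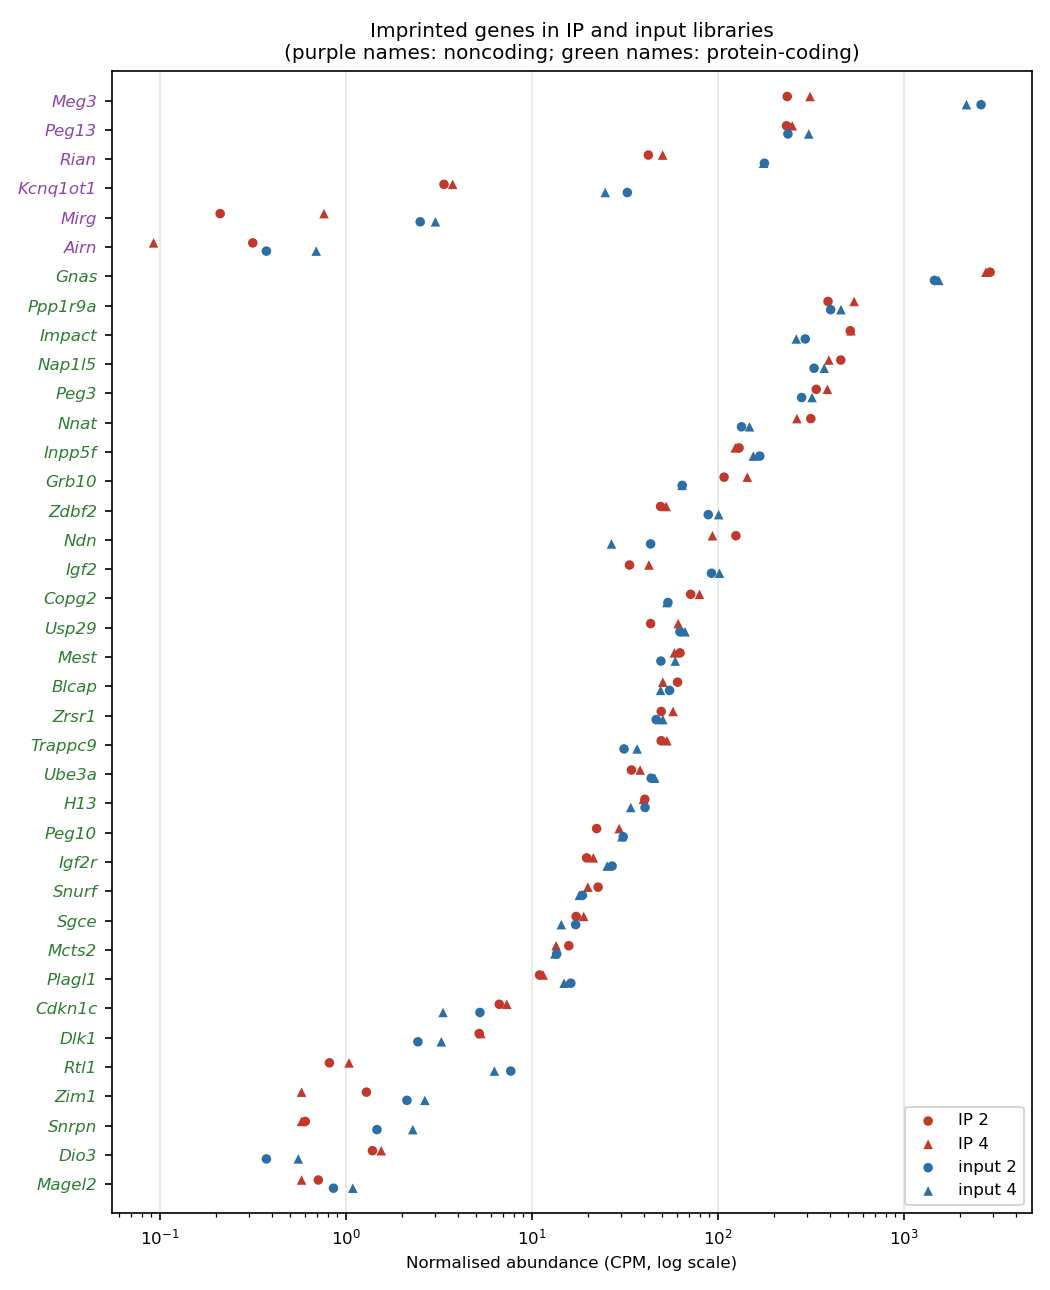
Normalised abundance (CPM, log scale) of the 38 members tested is drawn for each library, with IP libraries in red above input libraries in blue and circles for number 2 and triangles for number 4. Names in purple are noncoding. Meg3, Rian, Kcnq1ot1 and Mirg show both IP points left of both input points, while those of Peg13 overlap. IP values lay below input values for 500 of the 663 long noncoding genes tested.

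The protein-coding genes of the Dlk1-Dio3 domain went in opposite directions. Dlk1, which encodes a membrane protein related to Notch ligands, stood at 5.21 and 5.32 CPM in IP, against 2.44 and 3.26 CPM in input. It rose by 0.89 on the log2 scale (SE 0.27, edgeR adjusted p = 0.0105), a call that was lost without input 2 (0.70, edgeR adjusted p = 0.0942) and with library sizes alone (0.63, edgeR adjusted p = 0.0598). Dio3, the deiodinase that inactivates thyroid hormone, had 53 and 67 counts in IP, against 17 and 24 in input. Dio3 rose by 1.66 on the log2 scale (SE 0.54, edgeR adjusted p = 0.0172) and was not called without IP 4 (1.59, edgeR adjusted p = 0.0577) or without input 2 (1.41, edgeR adjusted p = 0.130). Both genes are paternally expressed, and both had their IP values above their input values, as for 35.3% of all genes tested.

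Rtl1, a protein-coding gene derived from a retrotransposon, fell, as did the noncoding RNAs of the domain. It had 31 and 45 counts in IP, against 350 and 272 in input, which is 0.816 and 1.04 CPM in IP and 7.70 and 6.29 CPM in input. Rtl1 fell by 2.90 on the log2 scale (SE 0.30, edgeR adjusted p = 2.64e-07), and the groups were far apart. Rtl1 occupies bases 109589193 to 109600330 of chromosome 12 on the minus strand, and 6 microRNA hairpins are annotated on the opposite strand inside its exons, which belongs to the maternally expressed series of noncoding RNAs. The strand setting of the counting is not given in the sources used here, so reads of Rtl1 and of an RNA on the other strand cannot be told apart, and this value is uncertain to that extent. These microRNAs are shown because all 11 mature sequences of the 6 hairpins are perfect complements of the annotated Rtl1 transcript. This follows from their place opposite its exons and is no separate result. In mouse, several of these microRNAs are known to direct cleavage of Rtl1 mRNA. A mature sequence of each hairpin is given 5′ to 3′ from RefSeq (GRCm38.p6, plus strand of chromosome 12), with the seed, bases 2 to 8, in capitals.
mmu-miR-431-5p: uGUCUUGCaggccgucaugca
mmu-miR-433-3p: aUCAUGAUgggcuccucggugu
mmu-miR-127-3p: uCGGAUCCgucugagcuuggcu
mmu-miR-434-3p: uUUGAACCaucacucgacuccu
mmu-miR-432: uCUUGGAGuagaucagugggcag
mmu-miR-136-5p: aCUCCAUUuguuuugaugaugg
The 11 mature sequences have 11 different seeds, so none share one. Mature microRNAs were not measured: of 23 rows for microRNA genes inside Rtl1, Meg3, Rian or Mirg, 15 had 0 counts in all 4 libraries, and the largest single value was the 66 counts of Mir1188. On their own strand in RefSeq, Mirg holds 14 hairpins and Rian holds 3, and Meg3 holds the microRNA genes Mir770 and Mir1906-1.

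Within the Peg3 domain, Peg3 and Usp29 start head to head with 163 bases between their starts, at 6730419 on the minus strand and 6730583 on the plus strand of chromosome 7. Peg3, a large zinc finger protein, stood at 338 and 388 CPM in IP, against 282 and 321 CPM in input. It rose by 0.27 on the log2 scale (SE 0.10, edgeR adjusted p = 0.0328). That call was lost without IP 4 (0.17, edgeR adjusted p = 0.222), without input 2 (0.18, edgeR adjusted p = 0.253), with the stricter filter (0.21, edgeR adjusted p = 0.0704) and with library sizes alone (0.01, edgeR adjusted p = 0.960). Usp29, a gene of the ubiquitin protease family, stood at 43.5 and 61.2 CPM in IP, against 62.5 and 66.6 CPM in input. Its log2 fold change of -0.30 did not pass (SE 0.13, edgeR adjusted p = 0.0699), although it did without IP 4 (-0.56, edgeR adjusted p = 0.000475), with library sizes alone (-0.56, edgeR adjusted p = 0.000867), with no filter (-0.28, edgeR adjusted p = 0.0404) and with the stricter filter (-0.35, edgeR adjusted p = 0.0271). It also passed, at the threshold, without input 2 (-0.34, edgeR adjusted p = 0.05). Without IP 2 it was -0.06 (edgeR adjusted p = 0.757). The ratio of Usp29 to Peg3 counts was 0.129 and 0.157 in IP, against 0.221 and 0.207 in input, and was lower in both IP libraries than in both input libraries. Exons of Usp29 overlap those of Zim3 on the other strand over 2582 bases, and its count is uncertain to that extent. Zim1, a maternally expressed zinc finger gene, had 49 and 25 counts in IP, against 97 and 115 in input, and fell by 1.37 (SE 0.45, edgeR adjusted p = 0.0173). Zim1 was -0.88 without IP 4 (edgeR adjusted p = 0.118), -1.19 without input 4 (edgeR adjusted p = 0.119) and -2.03 without IP 2.

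The Snrpn-Ube3a domain, whose loss in human causes Prader-Willi or Angelman syndrome, held genes on both sides of 0. Ndn, which encodes the neuronal growth suppressor necdin in a single exon, stood at 125 and 93.5 CPM in IP, against 43.5 and 26.8 CPM in input. It was 3.11-fold higher in IP (log2 fold change 1.64, SE 0.17, edgeR adjusted p = 2.98e-07), and the groups did not overlap. Magel2, a single-exon gene of the same MAGE family next to it, had 27 and 25 counts in IP, against 39 and 47 in input. The Magel2 value of -0.59 on the log2 scale did not pass (SE 0.57, edgeR adjusted p = 0.419). The ratio of Ndn to Magel2 counts was 176 and 162 in IP, against 50.7 and 24.7 in input. Snurf, the upstream reading frame of the transcript shared with Snrpn, stood at 22.7 and 20.0 CPM in IP, against 18.7 and 18.0 CPM in input, and did not pass (log2 fold change 0.21, SE 0.14, edgeR adjusted p = 0.233; -0.05 with library sizes alone). Snrpn, the gene of a neuronal spliceosome protein, had only 23 and 25 counts in IP, against 67 and 99 in input, and fell by 1.66 on the log2 scale (SE 0.48, edgeR adjusted p = 0.00858). That call was lost without input 4 (-1.30, edgeR adjusted p = 0.190). Snrpn and Snurf share 216 exonic bases on the same strand, the whole annotated length of Snurf. The files set reads that touch more than 1 gene apart, yet Snurf had 861 and 863 counts in IP, against 851 and 781 in input. The counting may thus have used other gene models, which are not given. Neither row can be taken as the level of the shared transcript.

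Ube3a, the ubiquitin ligase that neurons make from the maternal copy, stood at 34.3 and 38.2 CPM in IP, against 43.8 and 45.8 CPM in input. It fell by 0.30 on the log2 scale (SE 0.12, edgeR adjusted p = 0.0388). The call was lost without IP 2 (-0.21, edgeR adjusted p = 0.252), without input 2 (-0.33, edgeR adjusted p = 0.0872), without input 4 (-0.26, edgeR adjusted p = 0.190), with DESeq2 (-0.29, DESeq2 adjusted p = 0.0632) and with no filter (-0.29, edgeR adjusted p = 0.0589). The paternal noncoding RNA Snhg14, which runs antisense through Ube3a and carries small nucleolar RNAs, stood at 16.4 and 17.5 CPM in IP, against 73.0 and 72.3 CPM in input. Snhg14 fell by 2.10 on the log2 scale (SE 0.12, edgeR adjusted p = 1.15e-10). Ipw, another transcript of that region, stood at 2.71 and 3.01 CPM in IP, against 11.3 and 10.2 CPM in input, and fell by 1.90 (SE 0.21, edgeR adjusted p = 8.85e-07). The ratio of Snhg14 to Ube3a counts was 0.478 and 0.459 in IP, against 1.67 and 1.58 in input. Snhg14 and Ube3a share 1803 exonic bases on opposite strands, so the counts of both are uncertain to that extent.

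The start regions of Ndn, Nnat and Snrpn are shown for the core of the NRF1 motif (CGCATGCG, a palindrome, in capitals). They alone among the members with a window hold it in the 250 bases before a start. It is in 1.55% of all windows, a share of windows and not of genes. Ndn is from chr7:62348244-62348271 and Nnat from chr2:157560043-157560070, both on the plus strand, and Snrpn from chr7:60140286-60140313 on the minus strand of GRCm38.p6, 1 of 3 Snrpn starts that hold the core. The Ndn stretch precedes a RefSeq start but lies inside the longer Ndn exon of the GENCODE annotation, which runs from 62346569 to 62350262.
Ndn: cttcccaacaCGCATGCGcaatatcgca
Nnat: cccccaagcgCGCATGCGcacttaggtg
Snrpn: caaacatccaCGCATGCGtgatgggagg
Ndn and Nnat rose in IP and Snrpn fell, so these members did not move alike either. As above, these fold changes do not measure promoter activity.

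Growth regulators of the distal chromosome 7 domains differed among themselves. Cdkn1c, the maternally expressed cell cycle inhibitor p57, stood at 6.68 and 7.33 CPM in IP, against 5.26 and 3.33 CPM in input. It rose by 0.71 (SE 0.24, edgeR adjusted p = 0.0241), not called without input 4 (0.42, edgeR adjusted p = 0.253) or with library sizes alone (0.45, edgeR adjusted p = 0.141). Phlda2, a gene known from placenta, had 0 and 2 counts in IP and 0 counts in both input libraries. The ratio of Kcnq1ot1 to Cdkn1c counts was 0.504 and 0.511 in IP, against 6.19 and 7.47 in input.

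Igf2, the paternally expressed insulin-like growth factor, fell in IP. It stood at 33.5 and 42.6 CPM in IP, against 92.4 and 102 CPM in input, and the groups were well apart. The log2 fold change was -1.35 (SE 0.12, edgeR adjusted p = 4.74e-08). In adult brain Igf2 is known from meninges, choroid plexus and vessels more than from neurons. Of 8 choroid plexus markers, 3 were tested and 2 fell, and the list summed to 4.05 and 2.96 CPM in IP, against 6.95 and 7.33 CPM in input. Of 8 endothelial markers none was called, with sums of 8.97 and 8.81 CPM in IP, against 13.4 and 9.31 CPM in input. Of 8 meningeal fibroblast markers, 3 rose and 2 fell, with sums of 132 CPM in both IP libraries, against 43.8 and 44.3 CPM in input. Without Dcn, which made up most of that sum in IP, the sums were 44.8 and 52.8 CPM in IP, against 32.8 and 33.9 CPM in input. Aldh1a2 (22.5 and 28.4 CPM in IP) and Igfbp2 (15.0 and 17.3 CPM in IP) made up most of what remained in IP. Besides Dcn these 2 were the markers that rose, by 0.75 and 1.08 on the log2 scale. The collagen genes Col1a1 (log2 fold change -1.73) and Col1a2 (-1.31) fell, so the sums do not speak for the whole list. The choroid plexus markers Folr1, Aqp1 and Slc4a5 were at 0 counts in both IP libraries and at 1 to 4 counts in the input libraries, around the floor of 3 counts. Calls on these 3 lists stand beside 23.4% higher and 22.4% lower among all genes tested. No marker on these 3 lists was at 0 in all 4 libraries, and their part in the Igf2 result was not tested. Another annotated gene, Gm49394, shares 3596 exonic bases with Igf2 on the same strand, so the Igf2 count is uncertain to that extent.

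Igf2r, the receptor that clears Igf2 and sorts lysosomal enzymes, stood at 19.7 and 21.4 CPM in IP, against 27.0 and 25.4 CPM in input. It fell by 0.35 (SE 0.13, edgeR adjusted p = 0.0405), a call that stood in 5 of the 11 alternative settings. It was lost when any single library was left out (-0.27, edgeR adjusted p = 0.204 without IP 2; -0.40, edgeR adjusted p = 0.0539 without IP 4; -0.30, edgeR adjusted p = 0.206 without input 2; -0.38, edgeR adjusted p = 0.0865 without input 4), and with DESeq2 (-0.33, DESeq2 adjusted p = 0.0716) or no filter (-0.33, edgeR adjusted p = 0.0630).

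Gnas, Nnat, Grb10 and Impact rose in IP and kept that call in all 11 alternative settings. Gnas, which encodes the stimulatory G protein alpha subunit and several imprinted variants, had the highest level per kilobase of exon in IP and stood at 2910 and 2760 CPM in IP, against 1460 and 1540 CPM in input. The log2 fold change was 0.92 (SE 0.08, edgeR adjusted p = 5.39e-08), and the counts do not separate its variants or, over 988 shared exonic bases, the antisense RNA Nespas. Nnat, the endoplasmic reticulum proteolipid neuronatin, stood at 316 and 266 CPM in IP, against 134 and 148 CPM in input, a 2.06-fold difference (log2 fold change 1.05, SE 0.10, edgeR adjusted p = 1.43e-07). Impact, which restrains the translation kinase Gcn2, stood at 515 and 519 CPM in IP, against 295 and 264 CPM in input. It rose by 0.89 (SE 0.09, edgeR adjusted p = 2.57e-07). Grb10, a signalling adaptor that neurons express from the paternal copy, stood at 108 and 144 CPM in IP, against 64.3 and 64.2 CPM in input. Grb10 rose by 0.97 on the log2 scale (SE 0.12, edgeR adjusted p = 2.20e-06). Each of these 4 genes had its IP values above its input values, as for 35.3% of all genes tested. Of the pan-neuronal markers 10 of 12 rose and 1 fell, as given above. Of 8 astrocyte markers 3 rose and 3 fell, with sums of 1030 and 1130 CPM in IP, against 806 and 794 CPM in input. Aldoc alone made up 708 and 782 CPM of these sums in IP and 434 and 415 CPM in input. Of 8 oligodendrocyte markers 2 rose and 5 fell, with sums of 1260 and 1300 CPM in IP, against 1640 and 1540 CPM in input. These calls stand beside 23.4% higher and 22.4% lower among all genes tested. The part of these cell types in the values was not tested. Per kilobase of exon, the level of Gnas averaged 253 CPM in IP and 134 CPM in input, that of Nnat 159 CPM in IP and 77.1 CPM in input, and that of Impact 101 CPM in IP and 54.4 CPM in input.

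Several imprinted genes lie inside a larger host gene. Nnat lies inside Blcap, a gene linked to bladder cancer that stood at 60.7 and 50.6 CPM in IP and 55 and 49.2 CPM in input and did not pass (log2 fold change 0.09, SE 0.12, edgeR adjusted p = 0.541; -0.03 without IP 2 and -0.16 with library sizes alone). The ratio of Nnat to Blcap counts was 5.21 and 5.27 in IP, against 2.44 and 3.01 in input. Nap1l5, a nucleosome assembly protein gene within Herc3, stood at 458 and 395 CPM in IP, against 329 and 373 CPM in input, and rose by 0.28 (SE 0.10, edgeR adjusted p = 0.0248). Nap1l5 lost its call without IP 2 (0.19, edgeR adjusted p = 0.170), without input 2 (0.20, edgeR adjusted p = 0.199), with the stricter filter (0.23, edgeR adjusted p = 0.0532) and with library sizes alone (0.02, edgeR adjusted p = 0.868). Its host Herc3, a ubiquitin ligase gene, rose by 0.37 (SE 0.09, edgeR adjusted p = 0.00300), or 0.11 with library sizes alone (edgeR adjusted p = 0.345). Mcts2, a retrocopy of a translation factor gene inside H13, stood at 15.8 and 13.5 CPM in IP and 13.6 and 13.3 CPM in input (log2 fold change 0.12, SE 0.16, edgeR adjusted p = 0.566; -0.14 with library sizes alone). H13, a signal peptide peptidase gene, did not pass either (log2 fold change 0.11, SE 0.12, edgeR adjusted p = 0.506; -0.01 without input 4 and -0.15 with library sizes alone). Zrsr1, a splicing factor retrocopy inside Commd1, stood at 49.6 and 57.4 CPM in IP and 46.6 and 50.6 CPM in input (log2 fold change 0.14, SE 0.11, edgeR adjusted p = 0.342; -0.12 with library sizes alone). The ratio of guest to host overlapped between IP and input for Nap1l5 to Herc3, Mcts2 to H13 and Zrsr1 to Commd1. Trappc9, a membrane trafficking gene that hosts Peg13, stood at 49.6 and 53.2 CPM in IP, against 31.3 and 36.8 CPM in input, and rose by 0.60 (SE 0.12, edgeR adjusted p = 0.000458). The ratio of Peg13 to Trappc9 counts was 4.72 and 4.71 in IP, against 7.62 and 8.38 in input.

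Zdbf2, Plagl1 and Inpp5f fell. Zdbf2, a zinc finger gene with a role in postnatal growth in mouse, stood at 49.2 and 52.7 CPM in IP, against 88.8 and 101 CPM in input, and fell by 0.90 (SE 0.11, edgeR adjusted p = 1.64e-06). Plagl1, a transcription factor that regulates other imprinted genes, stood at 11 and 11.5 CPM in IP, against 16.2 and 14.9 CPM in input. It fell by 0.47 (SE 0.16, edgeR adjusted p = 0.0206), not called without IP 2 (-0.42, edgeR adjusted p = 0.0782) or without input 2 (-0.40, edgeR adjusted p = 0.139). Inpp5f, an inositol phosphatase gene, stood at 130 and 124 CPM in IP, against 168 and 155 CPM in input, and fell by 0.34 (SE 0.10, edgeR adjusted p = 0.00633), not called without input 2 (-0.28, edgeR adjusted p = 0.0793). In each of the 3 genes both IP values lay below both input values, as for 37.8% of all genes tested.

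The Peg10-Sgce and Mest-Copg2 domains lie on chromosome 6. In the Peg10-Sgce domain none of the 3 genes tested passed. The ratio of Peg10 to Sgce counts was 1.29 and 1.55 in IP, against 1.8 and 2.11 in input, without overlap. Peg10, a retrotransposon-derived gene read with a ribosomal frameshift, stood at 22.3 and 29.5 CPM in IP and 31.0 and 30.5 CPM in input (log2 fold change -0.25, SE 0.14, edgeR adjusted p = 0.161). It was called without IP 4, at -0.45 (edgeR adjusted p = 0.0202), and with library sizes alone, at -0.51 (edgeR adjusted p = 0.00428). Sgce, the epsilon-sarcoglycan gene of human myoclonus dystonia, stood at 17.3 and 19 CPM in IP and 17.2 and 14.4 CPM in input (log2 fold change 0.20, SE 0.15, edgeR adjusted p = 0.303; -0.06 with library sizes alone). Ppp1r9a, which encodes the spine protein neurabin, stood at 391 and 540 CPM in IP and 404 and 459 CPM in input (log2 fold change 0.11, SE 0.12, edgeR adjusted p = 0.475). The IP libraries of Ppp1r9a were apart: it was called at 0.34 without IP 2 (edgeR adjusted p = 0.00567) and stood at -0.13 without IP 4. Asb4 and Calcr, known from hypothalamus, had 8 and 17 counts (Asb4) and 3 and 1 counts (Calcr) in IP, against 10 and 5 counts (Asb4) and 2 and 0 counts (Calcr) in input, and were not tested. Of 10 hypothalamic neuron markers, 2 were tested and 1 fell, beside 22.4% lower among all genes tested, and 2 had 0 counts in every library. Mest, a hydrolase-like gene, stood at 62.6 and 58.4 CPM in IP and 49.4 and 59.0 CPM in input (log2 fold change 0.16, SE 0.11, edgeR adjusted p = 0.271; -0.10 with library sizes alone). Copg2, a coat protein gene whose end overlaps that of Mest on the other strand over 912 bases, stood at 71.4 and 79.7 CPM in IP, against 53.9 and 53.2 CPM in input. It rose by 0.50 (SE 0.11, edgeR adjusted p = 0.000775), or 0.24 with library sizes alone, where it was not called (edgeR adjusted p = 0.0682).

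Ratios within a library do not depend on scaling. The 7 noncoding members took 80.3 and 95.0 of every 1000 counts of imprinted genes in IP, against 440 and 396 in input. Meg3 alone took 36.7 and 48.0 per 1000 in IP, against 374 and 320 in input, and Gnas took 453 and 423 per 1000 in IP, against 210 and 228 in input. With Meg3 left out of both sums, noncoding members took 45.3 and 49.3 per 1000 in IP, against 104 and 111 in input. The groups did not overlap in any of these shares, but with 2 libraries against 2 the exact two-sided permutation test cannot go below p = 0.333, which is the value it gave. Set against Dlk1 counts, the ratio was 45.2 and 58.8 for Meg3 in IP, against 1060 and 666 in input. For Rian over Dlk1 it was 8.12 and 9.49 in IP, against 73.1 and 54.1 in input. For Mirg over Dlk1 it was 0.0404 and 0.143 in IP, against 1.03 and 0.929 in input. Airn over Igf2r overlapped between the groups, at 0.0160 and 0.00431 in IP and 0.0139 and 0.0273 in input. H19 over Igf2 ran the other way without overlap, at 0.00157 and 0.00380 in IP, against 0.000476 and 0.000680 in input, but rests on 2 and 7 counts of H19 in IP and 2 and 3 in input, around the floor of 3 counts. Members share domains and transcripts, so these ratios are not independent of each other.

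**Figure D4:**
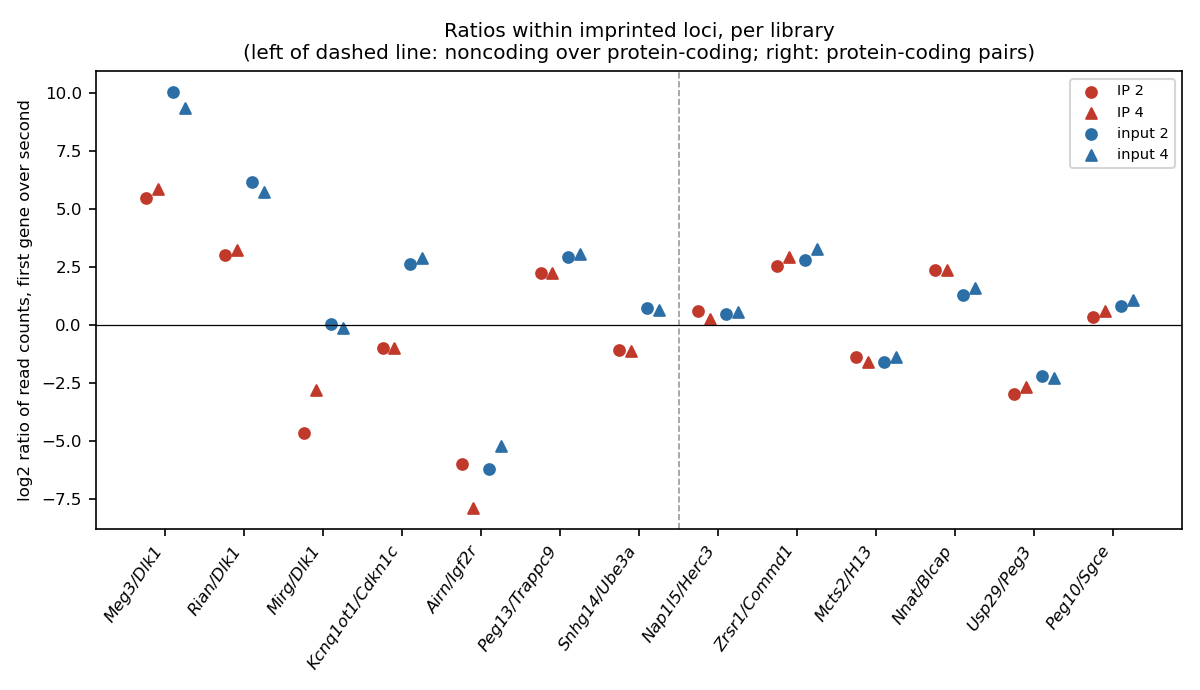
The log2 ratio of read counts of a first gene over a second gene of the same locus is drawn per library, IP in red left of input in blue, with circles for number 2 and triangles for number 4. Left of the dashed line are noncoding over protein-coding pairs. Both IP points lie below both input points in 6 of the 7 drawn, and those of Airn over Igf2r overlap. Meg3, Rian and Mirg are all set over Dlk1. The CPM of single genes lay lower in both IP libraries for 500 of 663 long noncoding genes and 37.8% of all genes tested. No such share was computed for ratios. H19 over Igf2, which is higher in IP and rests on 2 to 7 H19 counts, is not drawn. Among the protein-coding pairs Nnat over Blcap is higher in IP, and Usp29 over Peg3 and Peg10 over Sgce are lower in IP. Snhg14 over Ube3a and the protein-coding pairs were added after the values were seen.

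Parental origin and exon structure, taken from textbook knowledge and the annotation, gave groups of protein-coding members with medians close to each other. The 9 maternally expressed ones that were tested had a median log2 fold change of 0.11, with 3 higher and 3 lower. The 22 paternally expressed ones had a median of 0.15, with 8 higher and 6 lower, and Gnas was left out because it uses both copies. These groups follow the copy usually listed for each gene. Allele use can differ between cell types and was not measured here. Both medians stand beside 0.06 for all protein-coding genes tested, of which 26.8% were higher and 17.6% lower. The 5 single-exon protein-coding members had a median of 0.14, with Ndn and Dio3 higher and none lower.

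Other genes reported as imprinted in mouse in at least some tissue were called at shares near those of all genes. Of 60 names listed, 53 were in the files and 42 were tested, of which 9 rose and 9 fell (21.4% each, beside 23.4% higher and 22.4% lower among all genes tested), with a median of -0.06. Dcn, the proteoglycan decorin, stood at 86.7 and 79.4 CPM in IP, against 11 and 10.4 CPM in input (log2 fold change 2.96, SE 0.12, edgeR adjusted p = 1.16e-12). Qpct, an enzyme that modifies peptide ends, rose by 1.42 (SE 0.22, edgeR adjusted p = 3.23e-05), and Osbpl5, a lipid transfer protein gene, by 1.10 (SE 0.17, edgeR adjusted p = 2.94e-05). Besides Snhg14 and Ipw, Atp10a, a lipid flippase gene next to Ube3a, fell by 1.29 (SE 0.33, edgeR adjusted p = 0.00337), a call lost without input 2 (-1.11, edgeR adjusted p = 0.0532). Dcn is also on the fibroblast marker list given above, and imprinting of several of these genes is known mainly from placenta.

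Genes that read or maintain imprints were called on both sides. Of 31 such genes and DNA methylation factors, 28 were tested, 6 rose (21.4%) and 10 fell (35.7%), beside 23.4% higher and 22.4% lower among all genes tested. Their median was -0.01, near the -0.04 of all genes. Zfp57, the zinc finger protein that binds methylated imprint control regions, stood at 1.82 and 1.37 CPM in IP, against 6.05 and 8.11 CPM in input (log2 fold change -2.16, SE 0.28, edgeR adjusted p = 4.88e-06). Trim28, the corepressor that Zfp57 recruits, stood at 121 and 128 CPM in IP, against 50.4 and 54.6 CPM in input (log2 fold change 1.25, SE 0.10, edgeR adjusted p = 1.52e-08). Both genes had IP libraries clear of input libraries, in opposite directions. Ezh2, a histone methyltransferase of the Polycomb complex, fell by 1.77 (SE 0.21, edgeR adjusted p = 1.46e-06). Tet1, which oxidises methylated cytosine, fell by 1.17 (SE 0.11, edgeR adjusted p = 8.95e-08), and Uhrf2, a reader of modified DNA, by 0.77 (SE 0.12, edgeR adjusted p = 5.16e-05). Ehmt2, a histone methyltransferase, rose by 0.91 (SE 0.12, edgeR adjusted p = 4.40e-06).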

How the data were processed

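RNA of mouse cortex was sequenced in 2 IP and 2 input libraries. The authors deposited 1 file per library with whole-number counts for each gene name, made with STAR 2.0.0e, HTSeq and the mm10 build per the submitters' processing notes. For annotation, strand setting and library kit, the labels and notes used here are silent. Lines that name no gene, among them reads without a unique alignment (30.7% to 38.0% of records), entered neither library sizes nor tests. All gene names were fitted together with edgeR 4.0.16 in R 4.3.3: TMM normalisation, filterByExpr (minimum count 10, minimum total 15), quasi-likelihood test of IP against input with no block, Benjamini-Hochberg adjustment over 16600 genes, threshold 0.05. The SE is the log2 fold change divided by the square root of the F statistic. Replicates differed far beyond sampling noise (chi-square per degree of freedom of 21.2 in IP and 14.5 in input), so none was a copy. The method was tested on simulated data.

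Coordinates, exons and biotypes were taken from GENCODE vM21 (GRCm38, also called mm10), and sequences from RefSeq on GRCm38.p6. The gene models used in the counting may differ, so exon overlaps and levels per kilobase hold for this annotation only. Of the names, 23161 matched by symbol, 773 by synonym and 8597 not at all. The members and lists were chosen with earlier results of these data known, and some pairs, the parental grouping and the overlap check were added after the values were seen. All members are named, with counts alone where the mean was under 5 CPM unless a result turned on them. From the other lists, up to 6 called genes of at least 1 CPM with the largest absolute fold change are named. Alternatives were DESeq2 1.42.0, DESeq2 size factors, library sizes alone, no filter, a stricter filter (1 CPM in 2 libraries), a replicate block, omission of each library in turn, and omission of Rn45s. Figures were drawn with matplotlib 3.10.9 and permutation tests run with scipy 1.17.1.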

Additional observations from a re-analysis of the deposited data

How the results depend on the processing

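With library sizes alone 2151 of all genes rose and 5910 fell, 7 imprinted genes rose, all of them protein-coding, 17 other imprinted genes fell and 3 imprint readers rose. The protein-coding median became -0.13 and the noncoding median -2.47, and Snurf (-0.05), Blcap (-0.16), Zrsr1 (-0.12), Mcts2 (-0.14), Sgce (-0.06), Ppp1r9a (-0.15), H13 (-0.15) and Mest (-0.10), none of them called, changed sign. The noncoding median, which rests on 6 genes, was -1.92 with DESeq2 and with no filter, where H19 enters, and -2.53 with the stricter filter, where Airn drops out. Leaving out each library gave -2.57 to -2.13 for that median and 5 to 9 protein-coding members lower, with 5 without input 4. Over the libraries left out, Blcap ranged from -0.03 (without IP 2) to 0.23, Ppp1r9a from -0.13 (without IP 4) to 0.34, Peg13 from -0.34 to 0.03 (without input 4) and H13 from -0.01 (without input 4) to 0.25.

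Of the 42 members, 15 share 100 or more exonic bases with another annotated gene. Without them, a choice made after seeing the data, 6 members fell, of which 2 were noncoding and 4 protein-coding, and the noncoding median was -1.66. The noncoding share of member counts, lower in IP by a difference of -330 per 1000, differed by -60.5 without Meg3. Meg3, Rian, Mirg, Rtl1, Kcnq1ot1, Igf2, Zdbf2, Ndn, Impact, Gnas, Nnat, Grb10 and Trappc9 were called in the same direction in all 11 alternative settings.

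The numbers 2 and 4 are shared by both groups, but the labels do not say that they pair the samples. Deviations of same-numbered libraries correlated at 0.19 across genes. Xist counts were higher in number 4 than in number 2 in both groups, at 0 in IP 2 and 20 in IP 4, and at 2 in input 2 and 132 in input 4. Whether the numbers mark shared material was not tested. With a replicate block 12 members rose and 14 fell, Usp29 being the call added (-0.32, edgeR adjusted p = 0.00337), and across all genes 4314 rose and 4037 fell. Airn, H19, Phlda2, Asb4 and Calcr had at most 30 counts in any library, so small differences in them were not detectable at this depth.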
